A study of Mus musculus with 32 samples.

Results

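The 8 arrays described here set cells in culture with a Pparg knockdown against their control cells. They were chosen by their sample titles, which name 4 knockdown and 4 control arrays of the Pparg experiment in vitro, out of 32 arrays in the series. The labels give the knockdown arrays the genotype Pparg KnockDown and the control arrays the genotype Pparg control. Both groups are mouse cells of the strain C57Bl/6, labelled preadipocytes and kept at room temperature. How Pparg was knocked down, what the control cells carried and whether replicates were grown as separate cultures is not given in the sources used here. The p-values below therefore rest on a spread between replicates that may be technical only. The rest of the series holds a knockdown of Gyk in culture and samples labelled Pparg knockout, each with 4 arrays per group and its own controls.

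PPARG is a nuclear receptor that binds DNA together with a retinoid X receptor and switches on the genes of the fat cell. Its targets include proteins that coat and fill lipid droplets, enzymes that make and break triglycerides, and secreted adipokines. In brown fat it is also needed for the thermogenic programme, whose best known product is the uncoupling protein UCP1. The series title names brown adipocyte inducibility and glycerol kinase as the subject of the study.

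Each spot's signal is given below as a multiple of the 75th percentile of its array, and called its relative signal. That percentile lay between 588.8 and 806.3 intensity units on the knockdown arrays and between 592.5 and 776.3 on the control arrays. Between 54.7% and 59.7% of the gene spots stood well above background on the knockdown arrays, and between 54.0% and 56.4% on the control arrays. The arrays lay on 2 slides, with replicates 1 and 2 of both groups on slide 1 and replicates 3 and 4 on slide 2. On both slides the knockdown arrays held positions 3 and 4 and the control arrays positions 1 and 2, so position and group cannot be told apart. Arrays of one group on the same slide differed by an SD of 0.21 to 0.27 on the log2 scale across genes, against 0.45 to 0.56 between slides, so the slide entered the test as a block. A gene was tested if its probe stood well above background on at least 4 of the 8 arrays, and it was called if limma's 2-sided p-value, adjusted by Benjamini-Hochberg over all genes tested, was under 0.05.

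The Pparg transcript itself was lower on every knockdown array. Its relative signal was 17.2, 17.2, 20.9 and 20.6 on the knockdown arrays, against 63.8, 62.6, 78.4 and 81.3 on the control arrays. The groups did not overlap, and within each group the slide 2 arrays were a little higher. Pparg fell 3.76-fold (log2 difference -1.91, SE 0.04, adjusted p = 3.82e-08), by 1.88 on the log2 scale on slide 1 and by 1.95 on slide 2. The transcript was thus still measured well above background on all 4 knockdown arrays.

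The control cells carried the transcripts of mature fat cells. All 11 mature adipocyte markers stood well above background on all 8 arrays, and their summed relative signal ran from 559.0 to 679.2 on the knockdown arrays and from 1174 to 1444 on the control arrays. Of the 24 brown adipocyte genes listed, 18 did so on all 8 arrays, Ucp1 among them. The preadipocyte label is thus not the whole description of these samples: markers of preadipocytes and fibroblasts were present too, with 11 of 15 above background on all 8 arrays. In RNA from a whole culture, fewer cells of a type and less RNA per cell cannot be told apart. Markers of other cell types were present in part. Of 13 macrophage markers on the array, C1qb, Cd14, Csf1r and Itgam stood well above background on all 8 arrays and 6, Lyz2, Mrc1 and Cd163 among them, on none. Of 11 endothelial markers 4 did so on all 8 arrays (Eng, Flt1, Kdr and Pecam1) and 4, Tek and Tie1 among them, on none. Of 15 skeletal muscle markers 4 did so on all 8 (Acta1, Atp2a1, Mb and Myl1) and 8, Ckm, Myod1 and Myog among them, on none. Of 10 lymphocyte markers 3 did so on all 8 (Cd3e, Cd4 and Nkg7) and 6, Cd3d and Cd8a among them, on none.

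Of 12843 genes tested, 7596 (59.1%) were called: 3980 (31%) higher and 3616 (28.2%) lower in knockdown cells. With each array centred on its median, 3501 were higher and 4192 lower (45.5% of calls higher). Most of these differences were small. The median size among called genes was 0.43 on the log2 scale, and the 5th and 95th percentiles of all genes lay at -0.82 and 0.96. A difference of at least 2-fold was seen for 585 called genes (4.56%) that rose and 429 (3.34%) that fell, and one of at least 4-fold for 127 that rose and 78 that fell. The groups did not overlap for 4607 genes (35.9%). The median of all genes tested was 0.03, so shifts of a list are read against a value close to 0. Without the slide block 4375 genes were called, and 996 were called when the arrays of a group on one slide were averaged to leave 2 values per group.

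**Figure D1:**
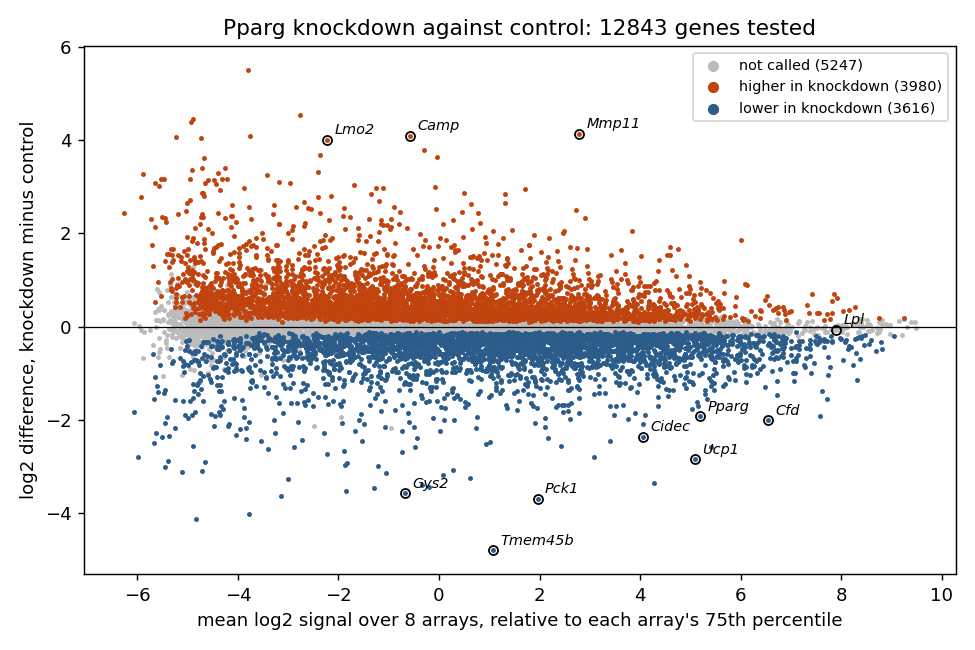
Each point is 1 of 12843 genes tested, with its mean log2 signal over the 8 arrays on the horizontal axis and its log2 difference, knockdown minus control, on the vertical axis; colours mark genes called higher (3980), called lower (3616) or not called. Pparg lies at -1.91 and Lpl, a gene that was not called, at -0.06.

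The difference was much the same on both slides. Across the 12843 genes tested, the log2 difference on slide 1 and that on slide 2 had a correlation of 0.93, which describes genes of the same 8 arrays and not independent samples. All 7596 genes called had the same sign on both slides. The calls rest on these same arrays, with the slide as a block, so that agreement is largely set by the selection. For single genes the slide could move the level of both groups together. Pnpla2, the lipase that opens triglyceride breakdown, was chosen after its values were seen to show this. Its relative signal was 5.15 and 6.08 on the slide 1 knockdown arrays and 1.87 and 2.10 on those of slide 2, against 12 and 13.6 and then 4.16 and 4.68 on the control arrays. The groups overlapped across slides, while on each slide both knockdown arrays lay below both control arrays, and the difference was -1.17 (SE 0.08, adjusted p = 7.91e-06).

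**Figure D2:**
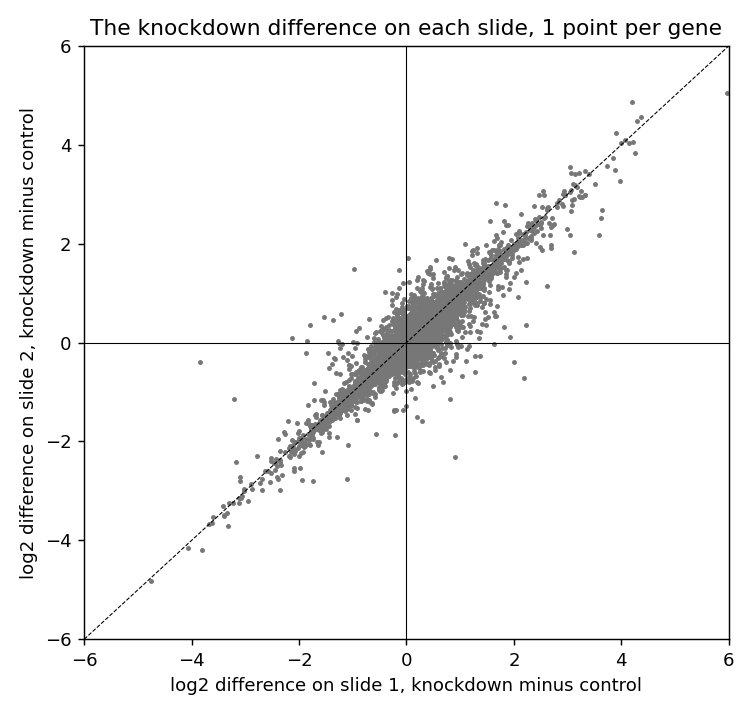
Each point is a gene tested, with its log2 difference, knockdown minus control, on slide 1 (horizontal) and on slide 2 (vertical), each from 2 arrays per group; the dashed line marks equal values. The points lie along that line, with a correlation of 0.93 across genes.

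The 2 other genes that the series is about fell with Pparg. Gk, which encodes glycerol kinase and is called Gyk in the series, had a relative signal of 0.645, 0.615, 0.811 and 0.656 on the knockdown arrays, against 1.70, 1.80, 1.99 and 1.90 on the control arrays, without overlap. Its difference was -1.44 (SE 0.07, adjusted p = 1.60e-06), or 2.72-fold lower. Ucp1 had 12, 13.1, 14.1 and 11.9 on the knockdown arrays, against 80.9, 81.5, 103 and 102 on the control arrays. Ucp1 was 7.15-fold lower (log2 difference -2.84, SE 0.08, adjusted p = 1.43e-07).

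Among the proteins that work with PPARG, the partner Rxrg and the co-regulators of brown fat moved most. Rxrg, a retinoid X receptor, had 1.94, 1.82, 2.37 and 2.16 on the knockdown arrays, against 7.6, 8.30, 10.2 and 10.6 on the control arrays, and was 4.40-fold lower (adjusted p = 1.07e-07). Rxra, the receptor's more general partner, was not called: it had 0.442 to 0.523 in knockdown cells and 0.426 to 0.569 in control cells, a difference of -0.02 (SE 0.05, adjusted p = 0.82). With the mean of its probes Rxra was 0.18 higher (adjusted p = 0.049). Prdm16, a co-regulator that specifies brown adipocytes, fell by 1.31 on the log2 scale (SE 0.07, adjusted p = 2.94e-06), and Ppargc1b, a coactivator of mitochondrial genes, fell by 1.14 (SE 0.09, adjusted p = 2.29e-05). Its relative Ppargc1a was not called, with 9.81 to 11.5 in knockdown cells and 10.2 to 11.0 in control cells (adjusted p = 0.98). Ncoa3, a steroid receptor coactivator, rose 2.06-fold (adjusted p = 5.06e-06). Of 20 partners and co-regulators tested, 10 fell (50%, against 28.2% of all genes), 4 rose (20%, against 31%) and 6 were not called. With no block 4 fell.

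Among the transcription factors of adipogenesis more fell than rose. Of 26 listed, 23 were tested, and 4 were not called. Of those tested 13 fell (56.5%, against 28.2% of all genes) and 6 rose (26.1%, against 31%). Ppara, the PPAR that drives fatty acid oxidation, had 13.2 to 14.6 in knockdown cells and 35.2 to 44.5 in control cells and was 2.78-fold lower (adjusted p = 8.78e-07). The liver X receptor Nr1h3, itself a known PPARG target, fell by 1.28 on the log2 scale, and Srebf1, the regulator of lipogenesis, by 1.13 (adjusted p = 7.11e-07 and 1.18e-06). Cebpa, which acts with PPARG to hold the mature state, fell less, by 0.82 (SE 0.06), and was chosen after its values were seen. Cebpd, a factor of the first hours of adipogenesis and of the acute-phase response, went the other way. It had 12.2, 10.9, 11.4 and 13.6 in knockdown cells, against 3.55, 3.68, 3.94 and 3.75 in control cells, and rose 3.21-fold (SE 0.07 on the log2 scale, adjusted p = 6.84e-07).

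Established PPARG targets were lower almost throughout. Of 45 listed, 42 were tested: 38 fell (90.5%, against 28.2% of all genes tested), 1 rose and 3 were not called, with a median of -1.45 against 0.03 for all genes. A probe could enter the test on the strength of the group in which it was bright. The counts of this list and of all other lists, rising or falling, therefore describe only the members tested. Of them, 32 fell at least 2-fold (3.34% of all genes did) and 35 had knockdown arrays all below control arrays. Over all genes tested, the groups did not overlap, in either direction, for 35.9%. Without any 1 of the 8 arrays the number that fell stayed at 38. With the arrays of a slide averaged it was 30.

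The steepest of these falls was that of Pck1, the enzyme that feeds glycerol-3-phosphate synthesis in fat. Pck1 had 0.942, 1.03, 1.25 and 1.16 in knockdown cells, against 12.3, 13.1, 15.7 and 15.2 in control cells, 12.8-fold lower (log2 difference -3.68, SE 0.05, adjusted p = 1.33e-08). Lipe, hormone-sensitive lipase, had 0.705, 0.822, 0.998 and 0.927 in knockdown cells, against 4.53, 4.26, 5.59 and 4.63 in control cells, 5.52-fold lower (adjusted p = 2.30e-07). Cidec, which fuses lipid droplets, had 8.44, 9.37, 6.13 and 6.20 in knockdown cells, against 41.6, 49.2, 29.8 and 34.3 in control cells, 5.13-fold lower (adjusted p = 1.85e-07). In all 3 genes every knockdown array lay far below every control array. Nnat, an imprinted gene for a small membrane protein, fell by 2.95 on the log2 scale (adjusted p = 1.66e-07).

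Not all targets followed. Lpl, lipoprotein lipase, had 231, 220, 238 and 251 in knockdown cells, against 234, 231, 252 and 265 in control cells. The groups overlapped, and the difference of -0.06 (SE 0.04, adjusted p = 0.24) was not called. Plin2, the droplet coat protein found in most cell types, fell by 0.25 (SE 0.05, adjusted p = 0.0034), a call lost with no block, with normexp (-0.12) and with quantile normalization (-0.13). Aldh1a1, a retinaldehyde dehydrogenase, was the only listed target that rose, with 0.667 to 0.801 in knockdown cells and 0.237 to 0.340 in control cells (2.49-fold, adjusted p = 1.98e-06). Its close relative Aldh1a7 fell 3.24-fold (adjusted p = 1.89e-07). The 2 genes are near-identical copies in the mouse, and how far each probe reads the other was not tested.

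**Figure D3:**
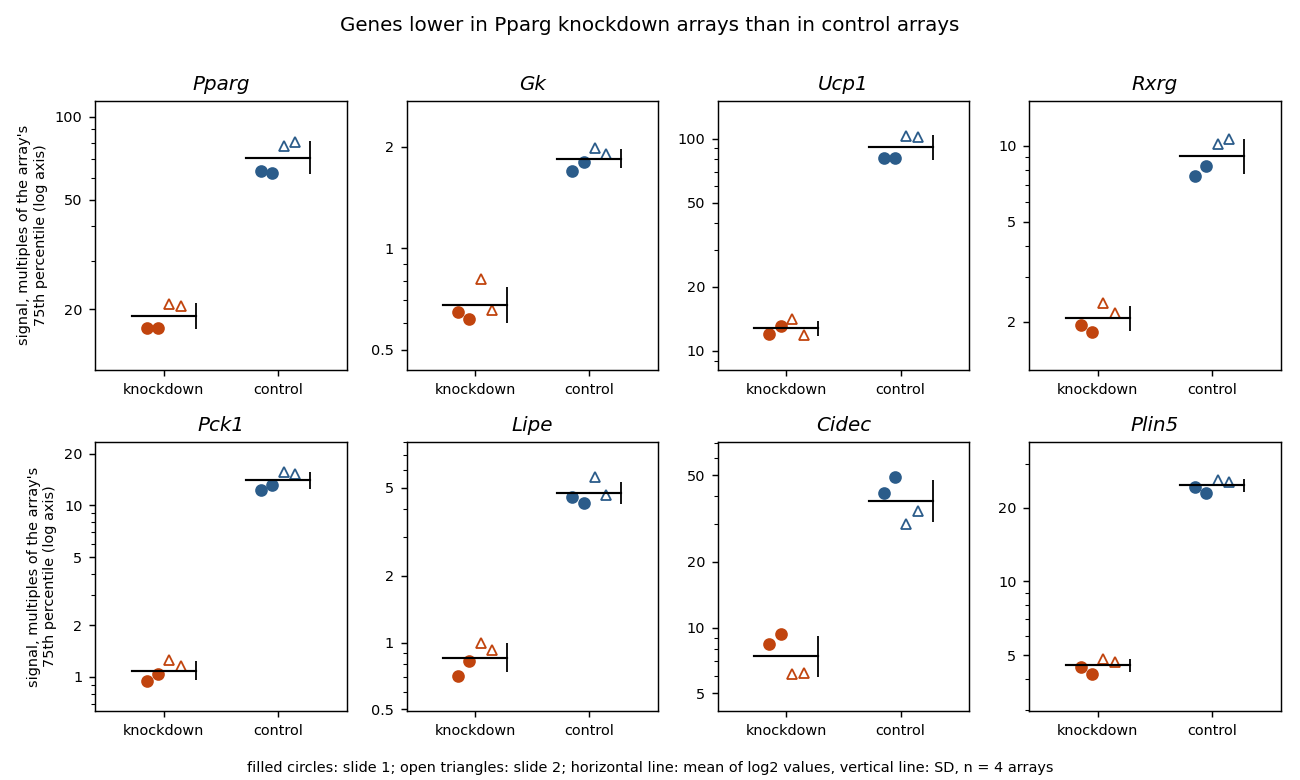
Relative signal (multiples of the array's 75th percentile, log axis, a scale of its own for each gene) of 8 genes on the 4 knockdown arrays (left) and 4 control arrays (right), with the mean and SD of the log2 values. In all 8 genes every knockdown array lies below every control array; Pparg has 17.2 to 20.9 in knockdown cells and 62.6 to 81.3 in control cells.

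PPARG and its partner bind a direct repeat of AGGTCA with 1 base between its copies. This repeat, with any base between the copies, was searched on both strands of the 250 bases before each gene start in RefSeq's promoter table for GRCm38.p6, with at most 2 mismatches, and 10210 of the genes tested had an entry. The repeat was found at 3.27% of these genes, at 5.94% of those at least 2-fold lower (19 of 320) and at 5.08% of those at least 2-fold higher (21 of 413). Among the established targets it was found at 3 of 29. These shares are a description of the letters in a short window and carry no test. The matches before the targets Aqp7, Cd36 and Plin2, and the one before Ctcflos, a non-coding RNA gene beside Pck1, are shown as examples. These genes fell and their windows hold the repeat, as do those of other genes that fell. Each stretch shown is written in the direction of its gene, and capitals mark the match.
Aqp7, chr4:41048150-41048222, minus strand: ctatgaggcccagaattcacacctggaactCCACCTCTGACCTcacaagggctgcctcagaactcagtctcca
Cd36, chr5:17835917-17835989, minus strand: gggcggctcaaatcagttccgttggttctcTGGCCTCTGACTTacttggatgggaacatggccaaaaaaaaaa
Plin2, chr4:86670242-86670309, minus strand: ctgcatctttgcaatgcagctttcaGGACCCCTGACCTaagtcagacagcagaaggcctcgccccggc
Ctcflos, chr2:173124523-173124595, plus strand: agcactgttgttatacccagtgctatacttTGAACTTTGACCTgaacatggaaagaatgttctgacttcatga
All 4 matches shown lie on the strand opposite to the gene. That of Ctcflos has 1 mismatch and the others have 2. The match begins 56 bases before the start of Aqp7, 63 before that of Cd36, 225 before that of Plin2 and 196 before that of Ctcflos. Cat, Echs1 and Etfa fell too (log2 differences -0.54, -1.33 and -0.63) and have matches with 2 mismatches that are not shown. Those of Cat and Echs1 lie on the strand of the gene.
Aqp7, the glycerol channel of fat cells, fell 2.52-fold (adjusted p = 1.46e-06), and Cd36, which takes up fatty acids, 2.17-fold (adjusted p = 5.40e-07). Ctcflos had 0.117, 0.165, 0.201 and 0.185 in knockdown cells, against 1.09, 1.33, 1.71 and 1.70 in control cells, and was 8.75-fold lower (adjusted p = 3.46e-07).

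Genes that build triglyceride fell as a group. Of 25 listed for glycerol-3-phosphate and triglyceride synthesis, 23 were tested, with a median of -0.84. Of these 18 fell (78.3%, against 28.2% of all genes), 2 rose (8.7%, against 31%) and 3 were not called. Gpd1, which reduces dihydroxyacetone phosphate to glycerol-3-phosphate, had 84.6, 86.7, 116 and 104 in knockdown cells, against 348, 369 and 408 on the 3 control arrays with a value, since 1 control spot was called outlying. It fell 3.74-fold (adjusted p = 1.60e-06). Of the acyltransferases and phosphatases that follow, Agpat2 fell 3.73-fold, Gpat3 3.53-fold, Lpin1 3.43-fold and Dgat1, which makes the last bond, 3.23-fold (largest adjusted p = 1.46e-06). Lpin3, a relative of Lpin1, rose 2.69-fold, with 1.42 to 1.68 in knockdown cells and 0.482 to 0.688 in control cells (adjusted p = 1.84e-06).

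Lipid droplet proteins fell unequally. Of 16 tested of 17 listed, 12 fell (75%, against 28.2% of all genes), 1 rose and 3 were not called. Their median was -0.70. Plin5, the coat protein that ties droplets to mitochondria, had 4.47, 4.20, 4.83 and 4.70 in knockdown cells, against 24.2, 22.9, 26.0 and 25.5 in control cells, 5.42-fold lower (adjusted p = 1.93e-08). Plin1, the coat protein of fat cells, fell 3.24-fold (adjusted p = 1.42e-07), and Cidea, a droplet protein of brown fat, 2.93-fold (adjusted p = 1.36e-07). Fitm1, which helps droplets form, was not well above background on any knockdown array and was at least 2.01-fold lower (adjusted p = 4.99e-05). Plin3, a coat protein of most cells, was not called (log2 difference -0.03).

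The genes of lipolysis and of the receptors that restrain it fell together. Of 16 listed, 14 were tested and 13 fell (92.9%, against 28.2% of all genes), with a median of -1.48. Beside Lipe, the monoglyceride lipase Mgll had 6.58 to 7.25 in knockdown cells and 25.5 to 28.8 in control cells, 3.95-fold lower (adjusted p = 5.41e-08). Adora1, Hcar1 and Hcar2 are receptors that dampen lipolysis when adenosine, lactate or hydroxybutyrate bind. Adora1 fell 4.20-fold and Hcar1 4.17-fold (adjusted p = 8.76e-08 and 2.45e-06). Hcar2 fell too (adjusted p = 3.12e-06), with 1 knockdown array and all 4 control arrays well above background.

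More genes of the pathway that turns noradrenaline into cyclic AMP fell than rose. Of 40 adrenergic and cyclic AMP genes listed, 33 were tested, with a median of -0.19. Of these 18 fell (54.5%, against 28.2% of all genes), 9 rose (27.3%, against 31%) and 6 were not called. With no block 11 fell, and with normexp background correction 11. Adcy5, an adenylyl cyclase, had 0.242, 0.206, 0.297 and 0.325 in knockdown cells, against 2.31, 2.40, 3.28 and 3.67 in control cells, 10.9-fold lower (adjusted p = 3.31e-08). Adrb3, the beta-adrenergic receptor of fat, had 16.9 to 18.6 in knockdown cells and 36.9 to 41.1 in control cells, 2.21-fold lower (adjusted p = 6.91e-07). Adra1b, an alpha receptor that signals through calcium, rose 3.61-fold, with 1.74 to 2.68 in knockdown cells and 0.514 to 0.651 in control cells (adjusted p = 6.11e-07).

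Most thermogenic genes fell, while Zic1 and Lhx8 rose. Of 24 brown adipocyte genes listed, 20 were tested, with a median of -1.22. Of these 15 fell (75%, against 28.2% of all genes), 2 rose (10%, against 31%) and 3 were not called. Otop1, a proton channel enriched in brown fat, had 0.424, 0.444, 0.570 and 0.573 in knockdown cells, against 4.35, 3.85, 5.36 and 5.49 in control cells, 9.47-fold lower (adjusted p = 1.33e-08). Dio2, which makes active thyroid hormone, was well above background on no knockdown array and on all 4 control arrays, and was at least 3.52-fold lower (adjusted p = 1.97e-05). Acot2, a mitochondrial thioesterase, was well above background on 1 knockdown array and 4 control arrays (adjusted p = 1.31e-07). The 2 that rose were Zic1 and Lhx8, transcription factors of the brown lineage, by 0.43 and 0.49 on the log2 scale (adjusted p = 4.52e-04 and 2.32e-04). Zic1 had 3.22 to 3.64 in knockdown cells and 2.40 to 2.67 in control cells, and Lhx8 had 0.689 to 0.821 in knockdown cells and 0.513 to 0.558 in control cells.

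**Figure D4:**
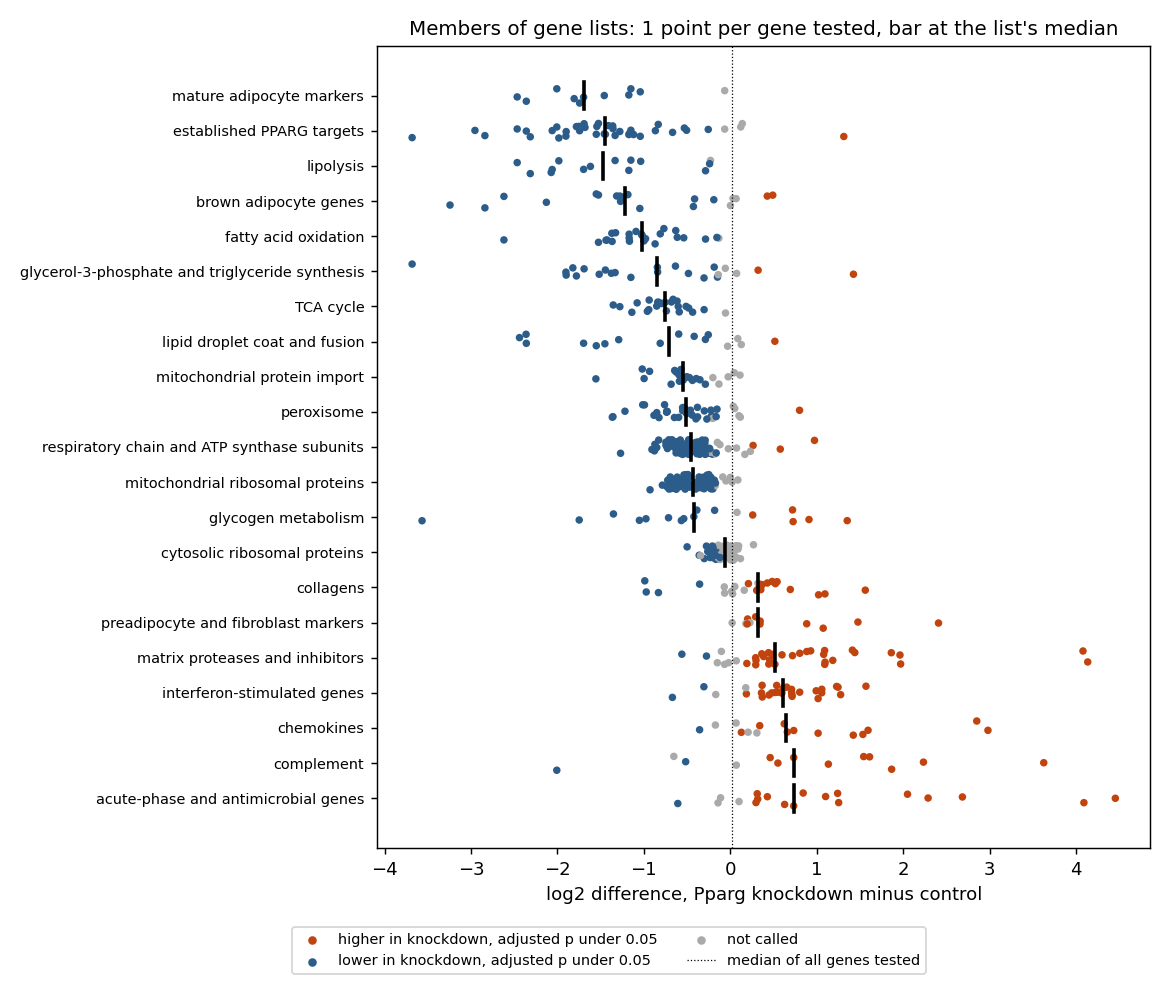
Each point is a tested member of one of 21 gene lists, with its log2 difference, knockdown minus control, on the horizontal axis; colours mark genes called lower, called higher or not called, bars the list's median and the dotted line the median of all genes (0.03). The medians run from -1.70 for mature adipocyte markers to 0.73 for acute-phase genes.

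Mitochondrial genes were lower across nearly every function, with medians of 9 lists from -1.02 to -0.36. In these lists 73.7% to 95.8% of the genes tested fell, against 28.2% of all genes. In fatty acid oxidation 23 of 24 tested genes fell, with a median of -1.02. Cpt1b, the muscle and brown fat form of the enzyme that admits fatty acids, had 2.35 to 3.53 in knockdown cells and 6.63 to 10.2 in control cells, 2.88-fold lower (adjusted p = 4.44e-07). Slc25a20, the carnitine carrier, fell 2.69-fold, Acadl 2.59-fold and Acaa2 2.58-fold (largest adjusted p = 3.88e-06). Acaa2 had 114 to 135 in knockdown cells and 277 to 361 in control cells. In the TCA cycle 22 of 23 fell, with a median of -0.75, led by Dlat of the pyruvate dehydrogenase complex (2.56-fold, adjusted p = 7.52e-07) and Idh3a (2.42-fold, adjusted p = 8.33e-07).

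Of 83 subunits tested of the chain and ATP synthase, 72 fell, 3 rose and 8 were not called, with a median of -0.45. Cox8b, the heart and brown fat form of a cytochrome oxidase subunit, was the single one at least 2-fold lower, with 25.8, 23.5, 34.2 and 27.8 in knockdown cells, against 56.8, 58.5, 70.9 and 82.3 in control cells (2.41-fold, adjusted p = 6.34e-06). Ndufa4l2, a relative of a cytochrome oxidase subunit that hypoxia induces, rose 1.97-fold (adjusted p = 4.15e-04), and was not called with normexp (0.37 on the log2 scale). Mitochondrial ribosomal proteins fell in 70 of 77 cases, none at least 2-fold, with a median of -0.43; with no block 42 fell. Mitochondrial import fell in 18 of 23, led by Tomm5 of the outer membrane channel (2.94-fold, adjusted p = 7.74e-07), coenzyme Q synthesis in 10 of 12, the fusion and fission genes in 15 of 19, mitochondrial carriers in 27 of 36 (4 rose), and the genes of mitochondrial DNA and its transcription in 14 of 19 (2 rose). Tfam, which packs and transcribes mitochondrial DNA, fell by 0.84 (SE 0.05, adjusted p = 5.19e-06). With the arrays of a slide averaged, 1 respiratory chain subunit and 1 mitochondrial ribosomal protein were still called lower.

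Outside mitochondria the lists differed. Cytosolic ribosomal proteins fell in 18 of 81 cases (22.2%, against 28.2% of all genes), with a median of -0.06 that turned to 0.03 with normexp and 0.02 with quantile normalization. Peroxisomal genes fell in 31 of 38 (81.6%, against 28.2% of all genes), with a median of -0.52. Among them were Pex11a, which divides peroxisomes, and Pex16 (log2 difference -1.36 in both). Proteasome subunits fell in 26 of 37 (70.3%), with a median of -0.21, although 9 fell with no block and 9 with normexp. The 2 proteasome genes that rose, Psmb8 and Psmb9, are among the subunits of the immunoproteasome. Psmb8 had 2.59, 2.79, 3.38 and 3.55 in knockdown cells, against 1.29, 1.26, 1.89 and 1.79 in control cells (1.99-fold, adjusted p = 2.68e-06).

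Carbohydrate genes changed in a few steep steps. Gys2, a glycogen synthase, had 0.173, 0.185, 0.179 and 0.192 in knockdown cells, against 2.25, 2.12, 2.09 and 2.17 in control cells, 11.8-fold lower (log2 difference -3.57, SE 0.05, adjusted p = 1.33e-08). Of 17 glycogen genes tested, 11 fell (64.7%, against 28.2% of all genes) and 5 rose (29.4%, against 31% of all genes). Ppp1r3d, a glycogen-targeting subunit of protein phosphatase, fell 3.36-fold (adjusted p = 4.52e-08), while Phkg1, a catalytic subunit of phosphorylase kinase, rose 2.56-fold (adjusted p = 2.91e-06). Slc2a4, the insulin-regulated glucose transporter, had 27.6 to 33.2 in knockdown cells and 55.6 to 71.0 in control cells, 2.06-fold lower (adjusted p = 8.08e-07). Fatty acid synthase, Fasn, fell 3.1-fold (adjusted p = 1.03e-06). In its list of fatty acid synthesis, elongation and desaturation, 12 of 22 fell (54.5%) and 3 rose (13.6%).

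Several mature adipocyte markers encode secreted proteins. Cfd, the complement factor adipsin, had 43.8, 40.7, 52.3 and 51.8 in knockdown cells, against 162, 165, 198 and 238 in control cells, 4.02-fold lower (adjusted p = 2.39e-07). Lep, leptin, fell 3.50-fold, Retn, resistin, 3.35-fold, and Adipoq, adiponectin, which was chosen after its values were seen, 2.75-fold (largest adjusted p = 4.84e-07). Of the 11 mature adipocyte markers 10 fell (90.9%, against 28.2% of all genes), with a median of -1.70, Lpl being the exception.

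Beyond the lists, the largest falls among genes well above background on all 8 arrays began with Tmem45b, a membrane protein gene. It had 0.387, 0.379, 0.434 and 0.397 in knockdown cells, against 9.94, 10.8, 12 and 11.5 in control cells, 27.6-fold lower (log2 difference -4.79, SE 0.05, adjusted p = 7.42e-09). Pck1, Gys2 and Adcy5 stand among the 12, with Ffar2, a receptor for short-chain fatty acids (11.4-fold), Aldh3b2, an aldehyde dehydrogenase (11.0-fold), Ubd, a ubiquitin-like modifier (10.5-fold), and Clstn3, calsyntenin 3 (10.2-fold). Flacc1, Otop1, Ctcflos and Ly6h complete them, at 8.45-fold or more. The largest adjusted p among the 12 was 4.27e-07. Of genes well above background on all control arrays and no knockdown array, the largest bounds were at least 11.8-fold for Tex19.1, a germ cell gene, at least 5.87-fold for Serpinb9f and 4.33-fold for its neighbour Serpinb9e, at least 4.27-fold for B3galt2 and, after these, Dio2. The Serpinb9 genes are close copies of each other, and how far their probes share targets was not tested.

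The 12 largest rises among genes well above background on all 8 arrays began with Mmp11. Mmp11, a matrix metalloproteinase also called stromelysin 3, had 26.7, 26.9, 31.4 and 30.9 in knockdown cells, against 1.48, 1.42, 1.79 and 1.94 in control cells, 17.6-fold higher (log2 difference 4.14, SE 0.05, adjusted p = 1.10e-08). Camp, the antimicrobial peptide cathelicidin, had 2.39, 2.52, 2.94 and 3.35 in knockdown cells, against 0.142, 0.136, 0.182 and 0.199 in control cells, 17.1-fold higher (adjusted p = 1.33e-08). Lmo2, a cofactor of transcription in blood cell development, rose 16.2-fold, with 0.773 to 0.921 in knockdown cells and 0.0519 to 0.0544 in control cells (adjusted p = 1.55e-08). The next were Mlana, a melanocyte antigen (13.9-fold), Lrrc75b (12.8-fold), the protease inhibitor Slpi (12.5-fold), the matrix protein Fbln7 (9.96-fold), Wdr86 (8.49-fold), Bmp4 (8.24-fold), Gm13889 (8.04-fold), Apod, a lipid-binding lipocalin (7.87-fold), and Map7d2 (7.83-fold). The largest adjusted p among the 12 was 4.68e-07.

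Other genes were well above background on all 4 knockdown arrays and on no control array. The largest bounds were at least 19.3-fold for Ccdc13, at least 12.2-fold for Adamtsl2, a matrix glycoprotein, 6.77-fold for Tenm2, 6.32-fold for Saa2, a serum amyloid protein, and 6.10-fold for Atp1b2, a sodium pump subunit. With normexp, Tenm2, Saa2 and Atp1b2 were 0.61, 0.68 and 0.72 higher on the log2 scale and not called. Ccdc13 had 0.442, 0.465, 0.525 and 0.504 in knockdown cells, against 0.00526 to 0.0165 in control cells. In all, 98 genes had this pattern and 37 had the opposite one.

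**Figure D5:**
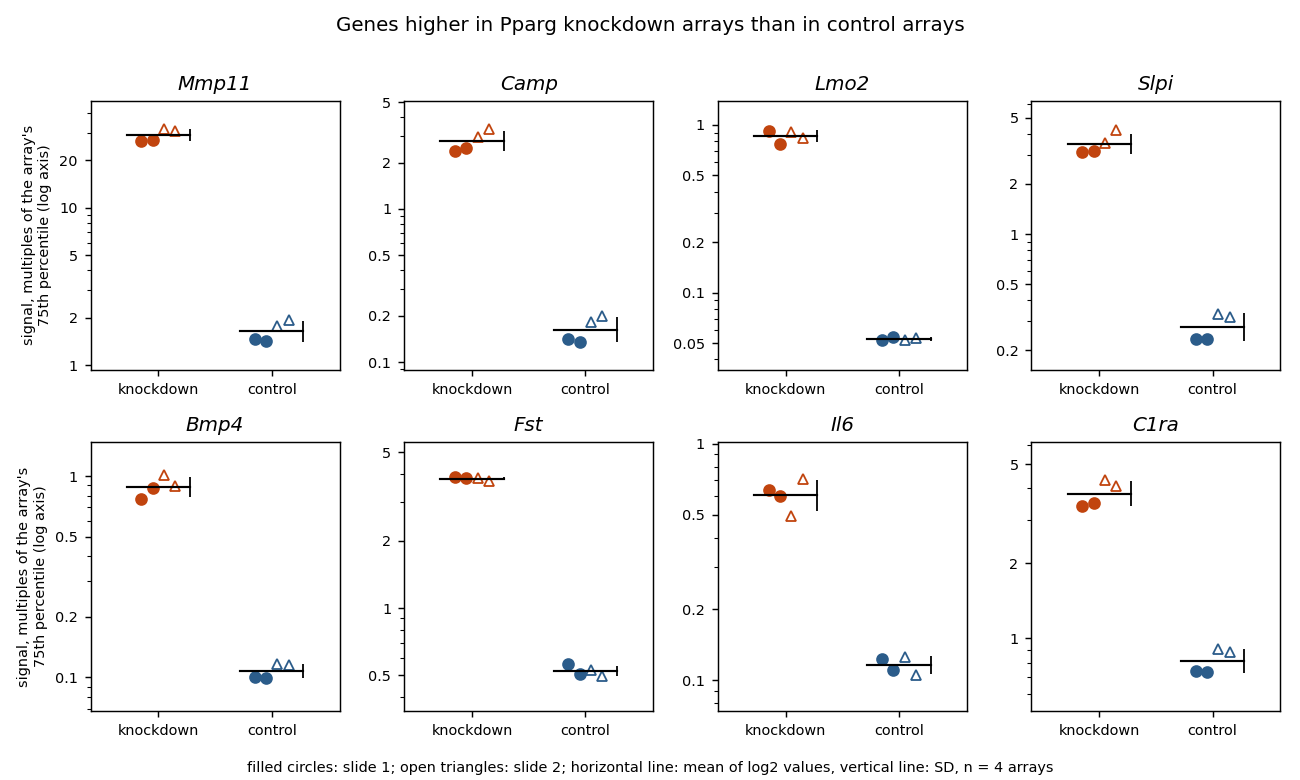
Relative signal (multiples of the array's 75th percentile, log axis, a scale of its own for each gene) of 8 genes on the 4 knockdown arrays (left) and 4 control arrays (right), with the mean and SD of the log2 values. In all 8 genes every knockdown array lies above every control array; Mmp11 has 26.7 to 31.4 in knockdown cells and 1.42 to 1.94 in control cells.

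Matrix remodelling genes rose, and the collagens did so by less. Of 60 matrix proteases and inhibitors listed, 35 were tested, 28 rose (80%, against 31% of all genes), 2 fell and 5 were not called, with a median of 0.52. Of these, 12 rose at least 2-fold (4.56% of all genes did). Mmp14, which sits on the cell surface, had 0.633, 0.638, 0.736 and 0.631 in knockdown cells, against 0.167, 0.142, 0.182 and 0.184 in control cells, 3.92-fold higher (adjusted p = 4.27e-07). Mmp2, the gelatinase that MMP14 activates, rose 3.64-fold, and Lox, which cross-links collagen, 3.90-fold (adjusted p = 6.52e-06 and 7.11e-07). Of 25 collagens tested, 13 rose (52%, against 31% of all genes), 4 fell (16%, against 28.2%) and 8 were not called. Their median was 0.32, and 7 rose with no block. Col3a1 rose 2.14-fold, with 12.1 to 15.0 in knockdown cells and 5.35 to 6.98 in control cells (adjusted p = 2.01e-06), and Col5a2 2.95-fold (adjusted p = 2.75e-05), a call lost with normexp and with no block. Col15a1, a basement membrane collagen, fell 1.98-fold (adjusted p = 0.0045), a call lost with the mean of its probes.

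Genes of the TGF-beta, BMP, activin and Wnt pathways rose more often than they fell. Of 35 genes tested for TGF-beta, BMP and activin signalling, 16 rose (45.7%, against 31% of all genes) and 5 fell (14.3%, against 28.2%). The other 14 were not called. With no block 10 rose, and with normexp 8. Bmp4, which commits precursors to the fat lineage, had 0.770, 0.877, 1.02 and 0.896 in knockdown cells, against 0.100, 0.0998, 0.116 and 0.115 in control cells (adjusted p = 2.85e-08). Fst, follistatin, an antagonist of activins, had 3.73 to 3.86 in knockdown cells and 0.498 to 0.563 in control cells, 7.28-fold higher (adjusted p = 1.73e-08). Gdf5, a ligand of the BMP family, fell, with 2.72 to 3.65 in knockdown cells and 10.8 to 14.1 in control cells (3.95-fold, adjusted p = 1.70e-07). Of 28 Wnt genes tested, 13 rose (46.4%, against 31% of all genes) and 5 fell (17.9%, against 28.2%), and 7 rose with the arrays of a slide averaged. The secreted antagonist Sfrp4 rose 4.63-fold (adjusted p = 4.83e-06), Ccn5 3.75-fold and Wnt11 3.61-fold (adjusted p = 2.62e-07 and 2.23e-06).

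Genes of the acute-phase response and of complement were higher. Of 24 acute-phase and antimicrobial genes listed, 19 were tested, with a median of 0.73. Of these 15 rose (78.9%, against 31% of all genes) and 1 fell (5.26%, against 28.2%). Across the alternative settings 7 to 16 rose. Orm3, an orosomucoid, had 1.02 to 1.15 in knockdown cells and 0.154 to 0.187 in control cells, 6.44-fold higher (adjusted p = 5.13e-08). Serpina3n, an antiprotease, rose 4.89-fold and Cp, ceruloplasmin, 4.14-fold (adjusted p = 4.07e-07 and 5.13e-08). Of 13 complement genes tested, 9 rose (69.2%) and 2 fell (15.4%). Across the alternative settings, which can change the members tested, 5 to 10 rose, and the median ran from 0.07 to 0.89. C1ra, a protease of the first complement complex, had 3.40, 3.50, 4.33 and 4.09 in knockdown cells, against 0.740, 0.731, 0.906 and 0.878 in control cells, 4.71-fold higher (adjusted p = 2.27e-08). Cfi, the protease that inactivates complement, was well above background on no control array and was at least 5.54-fold higher (adjusted p = 4.93e-06), though not called with normexp.

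Chemokines, cytokines and interferon-stimulated genes followed. Of 34 chemokines listed, 16 were tested, 11 rose (68.8%, against 31% of all genes) and 1 fell. Their median was 0.64, and 6 rose with normexp. Cx3cl1, fractalkine, had 6.22, 6.27, 6.58 and 7.89 in knockdown cells, against 0.884, 0.802, 1.03 and 1.02 in control cells, 7.22-fold higher (adjusted p = 5.62e-08). Il6 had 0.496 to 0.712 in knockdown cells and 0.106 to 0.126 in control cells, 5.22-fold higher (adjusted p = 1.53e-06). Of 29 genes of the IL6 and TNF families, 17 rose (58.6%) and 2 fell (6.9%). Of 29 interferon-stimulated genes tested, 25 rose (86.2%, against 31% of all genes) and 2 fell, with a median of 0.61. With normexp 15 rose, and with the arrays of a slide averaged 3 rose. Ifit3 rose 2.97-fold, with 0.738 to 0.902 in knockdown cells and 0.267 to 0.290 in control cells (adjusted p = 4.21e-07), and Ifit1 2.42-fold (adjusted p = 3.51e-05), a call that was lost with normexp (0.35). Of 25 genes for MHC class I and antigen processing tested, 12 rose (48%, against 31% of all genes) and 5 fell. With no block 7 rose, and with the arrays of a slide averaged none did (0 of 25). H2-M3 led them at 4.47-fold (adjusted p = 3.46e-07), with 0.71 on the log2 scale and no call with normexp.

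Markers of immune cells did not all move with these genes. Of 13 macrophage markers on the array, 6 were well above background on no array and 4 on all 8, and their summed relative signal was 3.14 to 4.69 on the knockdown arrays and 2.29 to 3.06 on the control arrays. Of the 5 tested, 3 rose (60%, against 31% of all genes) and none was called lower. Cd14, a receptor for bacterial lipid, had 0.396 to 0.579 in knockdown cells and 0.182 to 0.235 in control cells (2.26-fold, adjusted p = 3.01e-06). Csf1r and Itgam rose by 0.30 and 0.58 on the log2 scale, calls lost in 11 and 3 of the alternative settings. The lowest of the 5 lay at -0.70 and was not called. Across the alternative settings 1 to 3 rose. Of 10 lymphocyte markers 6 were above background on no array, and their summed signal was 2.16 to 2.38 on the knockdown arrays and 1.76 to 2.22 on the control arrays. The part of macrophages in the rise of the immune genes was not tested.

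Markers of preadipocytes and fibroblasts rose in part. Of 12 tested, 9 rose (75%, against 31% of all genes), none fell and 3 were not called. Their median was 0.32, and 5 rose with no block. Their summed relative signal was 112.6 to 133.1 on the knockdown arrays and 95.2 to 103.1 on the control arrays. Pdgfrb, a growth factor receptor of fibroblasts and pericytes, had 2.75 to 2.92 in knockdown cells and 0.952 to 1.04 in control cells, 2.78-fold higher (adjusted p = 1.68e-07), and Fap, fibroblast activation protein, rose by 2.41 on the log2 scale (adjusted p = 6.51e-05), with 4 knockdown arrays and 3 control arrays well above background. Dlk1, the classical preadipocyte marker, was not called, with 1.2 to 1.47 in knockdown cells and 1.14 to 1.52 in control cells (adjusted p = 0.83). Of 5 endothelial markers tested of 11 listed, 4 rose (80%, against 31% of all genes), and 1 rose with normexp. Vwf, among those that rose, was well above background on 4 knockdown arrays and no control array, so it was tested through the knockdown group alone. Eng rose 2.32-fold and Flt1 2.31-fold, which with normexp were 0.18 and 0.10 on the log2 scale and not called. The summed signal of the endothelial markers was 2.32 to 3.38 on the knockdown arrays and 1.85 to 2.35 on the control arrays. Smooth muscle and contractile genes rose in 10 of 16 (62.5%, against 31% of all genes) and fell in 2, one of them Des, the muscle intermediate filament (log2 difference -1.01). With no block 6 rose, and with the arrays of a slide averaged 1 rose. The list had a summed signal of 197.9 to 254.0 on the knockdown arrays and 138.7 to 184.2 on the control arrays. The part of a change in cell makeup in the other results was not tested.

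The series' other knockdown in culture, of Gyk, shows where the Pparg knockdown differed from it. Each had its own controls and slides, and the 75th percentile of the arrays was 141.3 to 424.4 intensity units with the Gyk knockdown and 355.5 to 418.1 in its controls. Of 13117 genes tested, the log2 difference in the Pparg experiment minus that in the Gyk experiment was called for 3001 (22.9%), below 0 for 1634 (12.5%) and above 0 for 1367 (10.4%). Among genes well above background on all 16 arrays, the largest below 0 were Tmem45b (-4.17), Adcy5 (-4.13), Krt36, Colq and Ubd, and the largest above 0 were Mmp11 (4.91), Mlana (4.33), Lmo2, Camp and Cyp2f2 (largest adjusted p = 1.02e-06). The log2 difference of Pparg itself was -1.91 in its own knockdown and -0.18 in that of Gyk (adjusted p of the difference 2.66e-07). For Gk it was -1.44 with the Pparg knockdown and -2.40 with the Gyk knockdown, a difference of 0.95 (SE 0.35) that was not called (adjusted p = 0.072). Of 42 established PPARG targets tested in both, 29 were called below 0 and 2 above 0. Their median was -1.45 with the Pparg knockdown and -0.49 with the Gyk knockdown, so the list was lower in both. Retn had -1.74 with the Pparg knockdown and -1.70 with that of Gyk (adjusted p of the difference 0.91). Fabp4, the fatty acid binding protein of fat cells, had a log2 difference of -1.15 with the Pparg knockdown and -0.02 with that of Gyk (adjusted p of the difference 1.49e-04).

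The log2 difference of Ucp1 was -2.84 with the Pparg knockdown and -0.96 with that of Gyk (adjusted p of the difference 1.86e-04), with 2 of the 4 Gyk control arrays lacking a value. For Cox8b it was -1.27 with the Pparg knockdown and -1.04 with the Gyk knockdown, a difference of -0.23 (SE 0.16) that was not called (adjusted p = 0.33). Of 21 brown adipocyte genes tested in both, 9 were called below 0 and none above 0. The median of these 21 was -1.26 with the Pparg knockdown and -0.63 with the Gyk knockdown. Of 31 interferon-stimulated genes, the difference was called below 0 for 3 and above 0 for 2, and the list's median was 0.61 with the Pparg knockdown and 0.78 with the Gyk knockdown. Of 19 acute-phase genes 15 lay above 0, with a median of 0.73 with the Pparg knockdown and -0.10 with that of Gyk.

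The arrays labelled Pparg knockout at room temperature form another Pparg experiment of the series, in vivo. The Pparg probe was 2.08 higher on the log2 scale on the arrays labelled knockout than on their controls, and this probe says nothing of a deletion outside its sequence. Of 14326 genes tested, the Pparg knockdown difference minus that of the arrays labelled knockout was called for 6018 (42%), below 0 for 2571 (17.9%) and above 0 for 3447 (24.1%). Of 45 established PPARG targets tested in both, 26 were called below 0 and 3 above 0. Their median was -1.41 in the knockdown and -0.47 on the arrays labelled knockout. Sample kind (cells in culture against samples in vivo) and slides differ together between both experiments and cannot be told apart. Fabp4 differed by -0.05 between them (adjusted p = 0.75) and Pck1 by 0.09 (adjusted p = 0.90), with log2 differences of -1.15 and -3.68 in the knockdown and of -1.10 and -3.77 on the arrays labelled knockout. For Fst they were 2.86 in the knockdown and 2.92 on the arrays labelled knockout (adjusted p of the difference 0.77). Prdm16 fell by 1.31 in the knockdown and was 0.56 higher on the arrays labelled knockout (adjusted p of the difference 2.37e-06). Among genes well above background on all 16 arrays, Ptgs1, Mb, Zfp185, Pparg and Adcy5 had the largest differences below 0, and Cpne5, Camp, Cx3cl1, Lnx1 and Fndc5 the largest above 0.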

How the data were processed

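RNA of 8 samples was measured on 1-colour Agilent arrays. The deposited values are spot intensities that Agilent Feature Extraction 10.7.3.1 wrote, background-subtracted and detrended per the file headers and not normalized between arrays. The deposited value table held the same intensities. Control spots and outlier spots were left out, spots of a probe averaged, and log2 intensities taken relative to each array's 75th percentile. Of 39429 probes 27234 had a gene symbol, for 20659 genes, and the probe with the highest mean stood for a gene. A 52-gene subset of those tested lacked 1 or more arrays for an outlier spot.

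The test was limma 3.58.1 (R 4.3.3, with version 1.17.8 of the data.table package) with the slide as a block, 2-sided, with Benjamini-Hochberg adjustment over 12843 genes, and it was tested on simulated data. All adjusted p-values in the text are limma's. The bright group of a gene not well above background in the other group is given as at least N-fold, against the lowest signal well above background on each array or the dim probe's own signal, whichever was higher. Deviations from each group's mean, with the slide effect left in, correlated at 0.70 to 0.77 for same-numbered arrays. They correlated at 0.69 to 0.73 for differently numbered arrays on the same slide and at -0.79 to -0.68 across slides. The slide effect left in sets this pattern, so it cannot show whether same-numbered arrays are paired beyond their slide.

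Named genes were Pparg, Gk and Ucp1, the 12 largest changes and 5 largest bounds in each direction, up to 6 called members of each list with the largest changes, and the 5 largest in each direction of each contrast among genes well above background on all 16 arrays. Members that were not called were also named. Adipoq, Aqp7, Cebpa, Lhx8, Lpin3, Plin2, Pnpla2 and Zic1 were chosen after their values were seen. The members and lists were chosen with earlier results of these data known. Alternatives covered the block, background correction, scaling, the filter on dim probes, the choice of probe, the variance trend and each array left out.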

Additional observations from a re-analysis of the deposited data

Results flagged for a closer look

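Of at most 304 gene and group combinations, 8 had 1 of the 4 arrays far from the other 3 for its group's range. Combinations with a missing array were left out. Chance alone marks about 1 in 20 groups in this way if the 4 arrays vary alike, and these lay on 2 slides. Among knockdown arrays, Mmp14 was 0.736 on replicate 3, against 0.631 to 0.638 on the other 3. Fitm1, not well above background on any knockdown array, was 0.00689 on replicate 3, against 0.0106 to 0.0110. Among control arrays, Slc25a20 was 4.64 on replicate 3, against 3.47 to 3.59, and Pdgfrb was 0.952 on replicate 3, against 1.03 to 1.04. Sfrp4 was 0.287 on control replicate 4, against 0.183 to 0.194, and Cfi, not well above background on any control array, was 0.00653 on control replicate 2, against 0.0128 to 0.0141. Acta1, a muscle actin, was 1.16 on control replicate 3, against 0.714 to 0.769, and Cd4 was 1.06 on control replicate 1, against 0.696 to 0.722.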

How the results depend on the processing

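The number of genes called depended most on how the slide was treated. Against 7596 calls, 4375 were made with no block (2323 higher, 2052 lower), all among the 7596, and 7410 with the replicate block, which pairs the arrays by number. Arrays of a slide averaged, an alternative chosen after seeing the data, gave 996 (562 higher, 434 lower) from 2 values per group. With normexp 4802 were called (2424 higher, 2378 lower), 228 at least 2-fold higher and 242 at least 2-fold lower, and the median of all genes was -0.07. Leaving out each array in turn gave 6864 to 7228 calls, 3500 to 3902 higher and 3326 to 3485 lower, with 488 to 593 at least 2-fold higher and 389 to 444 at least 2-fold lower. For the difference from the Gyk knockdown, 1631 genes were called with no block (806 below 0, 825 above 0), and 2237 to 3506 with 1 array left out (1199 to 1997 below 0, 1018 to 1555 above 0). For the difference from the arrays labelled knockout, leaving out 1 array gave 5297 to 6271 (2245 to 2773 below 0, 3010 to 3540 above 0). The sign turned for genes that were not called. Lpl was 0.056 with normexp, 0.013 with quantile normalization and 0.041 with the mean of its probes, and Plin3 was 0.12 with normexp and 0.092 with quantile normalization. Median centring gave -0.023 for Dlk1 and -0.042 for Ppargc1a, the mean of probes 0.18 for Rxra and -0.090 for Cpne5, and normexp -0.20 for Cpne5. Of the markers of other cell types, C1qb was -0.34 with normexp and -0.065 with quantile normalization, Pecam1 -0.20 with normexp, and Cd4 -0.038 with normexp and -0.052 with the mean of its probes. With 1 array left out Dlk1 ran from -0.047 to 0.081, Plin3 from -0.078 to 0.0046, Ppargc1a from -0.040 to 0.041, Rxra from -0.055 to 0.014, C1qb from -0.076 to 0.16, Cd4 from -0.040 to 0.20 and Nkg7 from -0.081 to 0.091. The cause was not tested. Dim probes are limited by their signal over background.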

Other observations

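Some of the largest changes lay beside each other. Among genes called and at least 4-fold changed, neighbours among the tested genes that moved the same way and stood well above background on all 8 arrays included Lrrc75b (log2 difference 3.68) with Ggt5 (2.16), Slpi (3.65) with Matn4 (2.0), and Ctcflos (-3.13) with Pck1 (-3.68). How many such pairs other sets of genes would give was not tested.

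Genes of proliferation showed no common direction. Of 32 cell cycle genes tested, 11 rose (34.4%, against 31% of all genes) and 9 fell (28.1%, against 28.2%). These shares lie near those of all genes. The other 12 were not called, the median was 0.05, and 4 rose with no block. Circadian clock genes fell in 6 of 16 cases (37.5%, against 28.2% of all genes) and rose in 1, with a median of -0.09, and 0 to 8 fell across the alternatives. Of 23 genes of the unfolded protein and integrated stress response, 7 rose (30.4%) and 10 fell (43.5%). Cytochromes P450 rose in 16 of 30 (53.3%) and fell in 4 (13.3%), with a median of 0.23 that was -0.15 with normexp.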
